A study of Mus musculus with 4 samples.

Results

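The claudins Cldn3, Cldn4, Cldn6 and Cldn7, and their tight junction partners Ocln, Marveld3, Tjp1, Tjp3 and Cgn, were followed across foregut endoderm and its neighbouring tissues in mouse embryos. The members were all probe sets whose only gene symbol in the platform annotation was 1 of these 9, which gave 16 probe sets of the 45037 on the array that are not controls, and 9 genes of 18193 named by a probe set with 1 symbol. Of the 16, 5 passed the filter used for tests, a log2 intensity above 5 on at least 2 of the 4 arrays, and each belonged to a different gene: Cldn4, Cldn6, Cldn7, Tjp1 and Cgn. Cldn3, Ocln, Marveld3 and Tjp3 had no probe set past it, and their values are given without a test. The tissues compared were foregut endoderm from the anterior intestinal portal (2 samples) and heart mesoderm combined with mesoderm and ectoderm of the head (2 samples). All came from ARC/s embryos at embryonic day 8.5 with 4 to 5 somites, although the source labels put the lower end at 3. No other genotype or treatment was named, and each sample pooled 15 to 20 tissue pieces. Experiment 1 holds foregut endoderm 1 and mesoderm and ectoderm 1, which were separated by hand, while the tissues of experiment 2 were digested with trypsin and pancreatin before dissection, per the labels' protocols, so experiment and dissection cannot be told apart. Foregut endoderm 2 is called ectoderm in 1 description field, against its title, source and tissue labels. Log2 intensity is log2 of the deposited value, and every difference below is foregut endoderm minus mesoderm and ectoderm unless said otherwise.

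Tight junctions seal the gap between neighbouring epithelial cells and separate the apical from the basolateral membrane. Claudins are the transmembrane proteins that form the strands of the junction and set which ions pass between cells. Occludin (Ocln) and Marveld3 are further transmembrane proteins, of the MARVEL family. ZO-1 (Tjp1) and ZO-3 (Tjp3) are scaffolds beneath the membrane that bind claudins through PDZ domains and link them to actin, and cingulin (Cgn) is a cytoplasmic protein that binds the ZO scaffolds. In the early embryo the gut lining, the neural plate and the surface ectoderm are all epithelia, whereas heart mesoderm and mesenchyme also use ZO-1 at other cell contacts.

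The 250 bases before the start of the 4 claudin genes are shown because the claudins carry the results below; Cldn3 and Cldn4 lie next to each other on chromosome 5. Sequences are those of RefSeq on GRCm38.p6, read along the gene's strand, and capitals mark the E-box CAGGTG or its reverse complement CACCTG, the letters to which the Snail and Zeb repressors of epithelial genes are known to bind.
Cldn3 (chr5:134985964-134986213, plus strand): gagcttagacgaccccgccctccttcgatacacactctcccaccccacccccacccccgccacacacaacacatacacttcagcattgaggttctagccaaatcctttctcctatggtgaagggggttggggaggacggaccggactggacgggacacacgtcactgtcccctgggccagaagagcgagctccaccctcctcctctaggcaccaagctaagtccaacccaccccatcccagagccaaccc
Cldn4 (chr5:134946935-134947184, minus strand): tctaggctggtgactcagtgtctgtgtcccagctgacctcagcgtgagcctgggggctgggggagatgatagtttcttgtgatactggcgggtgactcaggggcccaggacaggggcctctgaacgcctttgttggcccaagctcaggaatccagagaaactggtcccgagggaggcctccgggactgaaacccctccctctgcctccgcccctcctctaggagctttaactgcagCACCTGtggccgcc
Cldn6 (chr17:23679115-23679364, plus strand): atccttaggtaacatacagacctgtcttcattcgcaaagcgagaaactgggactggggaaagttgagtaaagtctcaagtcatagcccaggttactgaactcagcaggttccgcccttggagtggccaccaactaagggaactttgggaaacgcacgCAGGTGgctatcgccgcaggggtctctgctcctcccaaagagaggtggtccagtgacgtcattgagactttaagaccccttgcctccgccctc
Cldn7 (chr11:69964529-69964778, plus strand): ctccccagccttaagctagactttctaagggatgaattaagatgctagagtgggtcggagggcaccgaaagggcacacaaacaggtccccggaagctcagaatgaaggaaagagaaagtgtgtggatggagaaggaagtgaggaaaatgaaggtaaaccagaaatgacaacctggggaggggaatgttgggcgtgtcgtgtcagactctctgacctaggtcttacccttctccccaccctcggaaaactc
The E-box began 14 bases before the start in Cldn4 and 93 bases before it in Cldn6, and these windows of Cldn3 and Cldn7 held none. The RefSeq promoter table gave 11 start sites for 8 of the members, of which 6 held the E-box: those of Cldn4 and Cldn6, a second start of Cldn7, 1 of the 2 starts of Ocln and both of Tjp3. On either strand it occurred in 17.2% of all 32851 windows of this length. The letters AACNNGTT, bound by grainyhead-like factors such as Grhl2, were present in the Cgn window alone of the 11, against 3.64% of all windows. The GC box GGGCGG or its reverse complement was present in 8 of the 11, against 32.7% of all. None of these motifs overlapped another in the members' windows. The GC content of the 11 ran from 43.2% to 70.4%, beside a median of 52.4% over all windows. Only the Cldn7 window shown (51.2%) and the lowest, a Tjp3 window, lay below that median. A match describes the letters only.

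The tissue labels were set against marker genes. All 6 gut endoderm markers, among them Foxa1 and Shh, were above the filter in both endoderm samples, and their intensities summed to 3974 and 7715 in foregut endoderm 1 and 2, against 226 and 527 in mesoderm and ectoderm 1 and 2. The 7 neural plate markers summed to 1659 and 3426 in endoderm and to 4557 and 4196 in mesoderm and ectoderm. Most of the endoderm sums came from Sox2, at log2 intensities of 10.57 and 11.71 in endoderm, against 11.63 and 11.73. The median log2 intensity of the 7 was 3.5 and 3.3 in endoderm, against 8.0 and 6.9. Heart muscle markers went against the labels in experiment 1: the 6 genes summed to 8997 and 294 in foregut endoderm 1 and 2, against 66.9 and 71320 in mesoderm and ectoderm 1 and 2. On each array 12470 to 13033 probe sets exceeded a log2 intensity of 5, while 41.4% to 44.8% lay within 0.1 log2 units of the lowest value of their array, called the floor. Values are therefore also given within each experiment, and the number of arrays, 2 a tissue, limits the precision of each.

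In each experiment Cldn4, Cldn6 and Cldn7 had higher values in foregut endoderm, by 4.17-fold to 9.66-fold. Cldn4, a claudin of gut and other simple epithelia, had log2 intensities of 7.27 and 7.60 in foregut endoderm 1 and 2, against 4.57 and 4.62 in mesoderm and ectoderm 1 and 2. The tissues did not overlap, and samples of the same tissue lay within 0.33 log2 units of each other. Its mean difference was 2.85 ± 0.33 (SE, n = 2 a tissue), or 7.19-fold, made up of 2.71 (experiment 1) and 2.98 (experiment 2). Cldn4 passed the filter through the endoderm samples alone, which by itself requires a higher value there.

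Cldn6, a claudin of embryonic epithelia, was at 6.18 and 9.56 in foregut endoderm 1 and 2, against 3.92 and 6.29 in mesoderm and ectoderm 1 and 2. Read across experiments the tissues overlapped, because mesoderm and ectoderm 2 lay just above foregut endoderm 1. Within the experiments endoderm was higher by 2.26 and 3.27 log2 units, that is 4.80-fold and 9.66-fold. The mean difference was 2.77 ± 1.55 (SE), and it was 1.08 without foregut endoderm 2 and 4.46 without foregut endoderm 1.

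Cldn7, a claudin found along the lateral membrane of many epithelia, was at 7.32 and 9.21 in foregut endoderm 1 and 2, against 5.26 and 6.20 in mesoderm and ectoderm 1 and 2. Every endoderm value lay above every value of the other tissue, and Cldn7 was above the filter on all 4 arrays. Differences of 2.06 and 3.02 in the experiments gave a mean of 2.54 ± 0.84 (SE), or 5.81-fold, which was 1.59 without foregut endoderm 2.

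Cldn3, the neighbour of Cldn4, was read by 4 probe sets that disagreed. Probe set 1460569_x_at had 2.61 and 5.34 in foregut endoderm 1 and 2, against 2.64 in both mesoderm and ectoderm samples, and 1451701_x_at was at 2.26 and 4.71, against 2.29 in both others. Both thus had a high value in foregut endoderm 2 alone, by 2.70 and 2.42 log2 units over mesoderm and ectoderm 2. These are bounds in size, because the low values of both probe sets either lay at the floor or kept a fixed distance, within 0.005 log2 units, from their array's lowest value; such a value is called background-bound below. The suffix x in their names marks probe sets with probes that can match other sequences as well. Of the other pair, 1434651_a_at had 3.08 and 3.80 in endoderm, against 3.06 and 3.05, and 1426332_a_at lay at the floor on all 4 arrays.

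**Figure D1:**
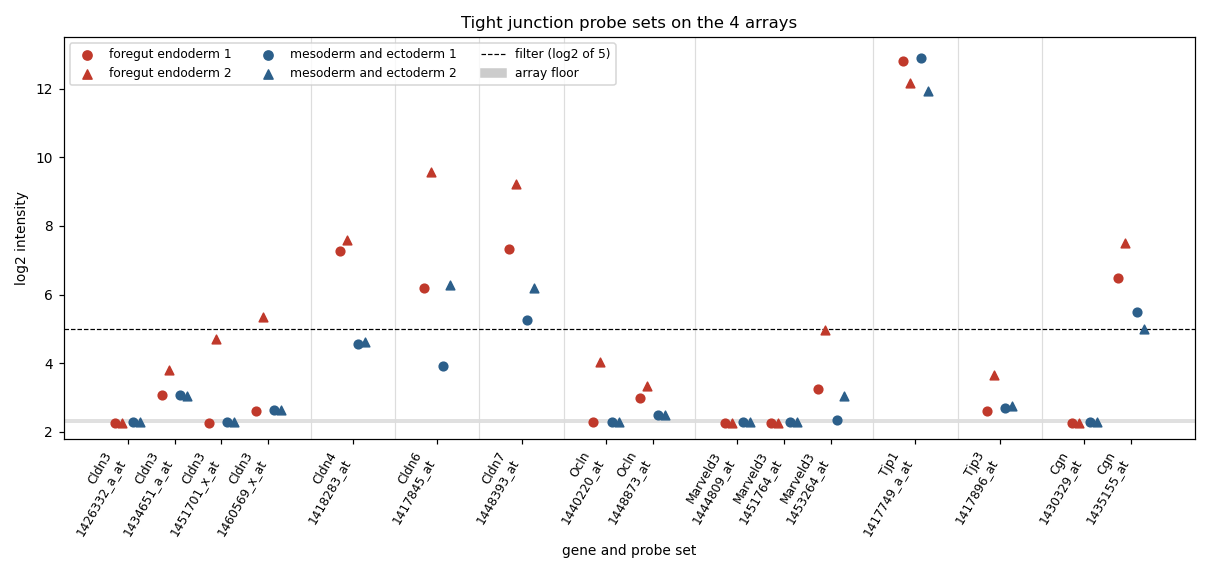
Log2 intensity (vertical axis) of the 16 probe sets of the 9 genes (horizontal axis) on each array, with foregut endoderm in red left of mesoderm and ectoderm in blue, circles for experiment 1 and triangles for experiment 2. The dashed line is the filter at 5 and the grey band the range of the floors. Cldn4, Cldn7 and 1 probe set of Cgn have both red points above both blue points, Tjp1 lies near 12 to 13 on all arrays, and most Cldn3, Ocln, Marveld3 and Tjp3 points lie below the filter.

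The other transmembrane partners were dim. Ocln, a membrane protein of the junction strands, had values of 3.00 and 3.33 in foregut endoderm 1 and 2 with probe set 1448873_at, against 2.48 and 2.49 in mesoderm and ectoderm 1 and 2. The mesoderm and ectoderm values were background-bound, so the differences of 0.51 and 0.84 are bounds in size. Its other probe set, 1440220_at, was at 2.28 and 4.04 in endoderm, against 2.29 and 2.29, with all but foregut endoderm 2 at the floor. Foregut endoderm 2 was thus the sample with the highest value in both Ocln probe sets. Of 3 probe sets for Marveld3, 2 stayed at the floor on all arrays, while 1453264_at was at 3.25 and 4.98 in foregut endoderm 1 and 2, against 2.33 (the floor) and 3.04 in mesoderm and ectoderm 1 and 2. Both endoderm values were the higher ones there, by at least 0.92 (experiment 1) and by 1.94 (experiment 2).

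The scaffolds were divided. Tjp1 (ZO-1) was at 12.81 and 12.15 in foregut endoderm 1 and 2, against 12.90 and 11.92 in mesoderm and ectoderm 1 and 2, with tissues that overlapped. Its mean difference of 0.07 ± 0.53 (SE) had opposite signs in the experiments, at -0.08 and 0.23, and the sign of the mean also turned with median centring (-0.10). Tjp3 (ZO-3), a scaffold of epithelial cells, was at 2.60 and 3.67 in endoderm, against 2.68 and 2.77, again with foregut endoderm 2 as the highest sample. Cgn had 6.49 and 7.52 in foregut endoderm 1 and 2 with probe set 1435155_at, against 5.51 and 4.99 in mesoderm and ectoderm 1 and 2. Every endoderm value was higher, by 0.98 (experiment 1) and 2.52 (experiment 2), and the mean difference was 1.75 ± 0.52 (SE), or 3.37-fold. The other Cgn probe set lay at the floor on all arrays.

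No member passed the test. Of the 13288 kept probe sets limma called 0% higher and 0% lower at an adjusted p under 0.05, and its adjusted p was 0.724 for Cldn4 and 1 for Cldn6, Cldn7, Cgn and Tjp1. At an unadjusted p under 0.05 limma gave 500 probe sets (3.76%), 395 higher and 105 lower (282 and 140 with median centring), among them 3 of the 5 members, Cldn4, Cldn7 and Cgn. A replicate block left limma's calls at 0% as well, with 1326 probe sets (9.98%) at an unadjusted p under 0.05, among them 4 of the 5 members, Cldn6 now included. Its adjusted p was 0.351 for Cldn4, 0.410 for Cldn6 and Cldn7, 0.499 for Cgn and 0.934 for Tjp1. The block narrowed the SE of Cldn6 to 0.37 and that of Cldn7 to 0.36. Set side by side without a test, 3 of the 5 members exceeded a 2-fold difference towards endoderm in each experiment, against 3.57% of all kept probe sets, and 0 were 2-fold lower in both, against 1% of all. Likewise 3 of the 5, Cldn4, Cldn7 and Cgn, had both endoderm values above both others, against 16.4% of all kept probe sets (18.2% of kept genes). For Cldn4 this order was fixed by the filter, which it passed through the endoderm samples alone. The filter thus also favoured the direction of Cldn4 in the 2-fold count. Median differences of the 5 were 2.06 and 2.98 in the experiments, against 0.12 and 0.03 over all kept probe sets. Over all 16 member probe sets, with no filter, the medians were -0.02 and 1.33, and the 3 probe sets of Cldn4, Cldn6 and Cldn7 were those past 2-fold in both. In pooled tissue, fewer epithelial cells and less RNA per cell cannot be told apart.

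Epithelial markers were also higher in endoderm. All 7, among them the adherens junction gene Cdh1 and the surface protein gene Epcam, differed by 2-fold or more towards endoderm in each experiment, and they summed to 4385 and 18189 in foregut endoderm 1 and 2, against 754 and 2416 in mesoderm and ectoderm 1 and 2. Of these 7 markers, 6 were above the filter in mesoderm and ectoderm 1 and all 7 in mesoderm and ectoderm 2. Of 6 surface ectoderm markers, Tfap2c and Dlx5 were above the filter in both mesoderm and ectoderm samples, and Tfap2c also in endoderm (7.33 and 6.59). Trp63, Grhl3 and Krt5 were below the filter on every array, and Krt14 was at the floor on all arrays. The 6 summed to 218 and 142 in endoderm and to 1733 and 981 outside it, mostly from Tfap2c (10.70 and 9.80 outside it). The part of these cell types in the claudin differences was not tested. The 6 yolk sac endoderm markers summed to 1299 and 5589 in endoderm and to 58.3 and 198 outside it, with Apoa4 at the floor on all arrays and 3 of the 6 (Apob, Apoa1 and Apoa4) below the filter on every array, and their part was not tested either. The 7 endothelial markers summed to 549 and 62.7 in endoderm and to 91.5 and 380 outside it, with Pecam1 at the floor on all arrays. The endothelial claudin Cldn5 lay at 2.57 to 2.60 on all arrays and was background-bound; it was chosen after its values were seen. Mesenchyme markers summed to 7364 and 1493 in endoderm and to 1864 and 4492 outside it, and the 4 blood genes found to 2379 and 204 in endoderm and to 405 and 2439 outside it, with Alas2 at the floor throughout. Heart, endothelial, mesenchyme and blood sums thus had opposite order in the experiments, but not every gene of these lists shared it. Prrx1 (2.11 and 1.08), Pdgfrb (3.00 and 0.03) and Nkx2-5 (1.79 and 0.75) were higher in endoderm in both experiments. Zeb2 (-0.95 and -3.36) was lower in both. Cldn4, Cldn6 and Cldn7 were higher in endoderm in each experiment, and the part of these cell types in that was not tested.

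**Figure D2:**
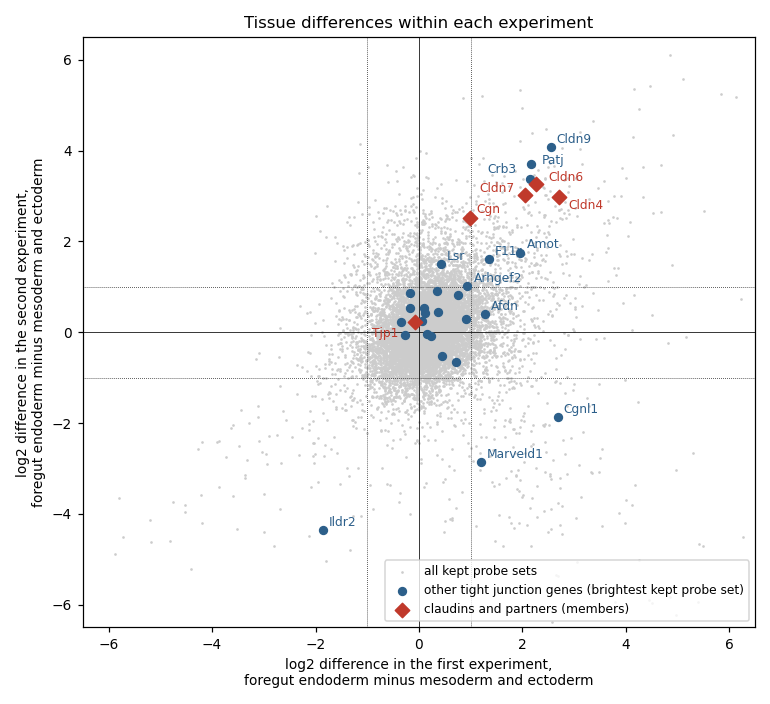
Log2 difference of foregut endoderm minus mesoderm and ectoderm in the first experiment (horizontal) and the second (vertical). Grey points are the 13288 kept probe sets, of which 30 lie outside the axes, red diamonds the 5 members and blue points the 26 other tight junction genes; dotted lines mark 2-fold. Cldn4, Cldn6 and Cldn7 lie in the upper right corner beside Cldn9, Patj and Crb3, Tjp1 lies near the origin, and Cgnl1 and Marveld1 lie in the lower right. Lsr, Arhgef2 and Afdn, also named there, pass 2-fold in 1 experiment.

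A list of 60 other tight junction genes placed the members in their pathway. Of these, 53 were matched to the annotation and 26 had a kept probe set, the brightest of which was read. Another 5 differed by 2-fold or more towards endoderm in each experiment, against 3.54% of all kept genes, and 1 was 2-fold lower in both, against 1.24%. Of the 5, Crb3 passed the filter through the endoderm samples alone, which favours a higher value there. The medians of the 26 were 0.44 in each experiment, against 0.15 and 0.01 over all kept genes, and limma called none of them in either fit. At an unadjusted p under 0.05 limma gave 3 of the 26, against 328 of all 7802 kept genes. With the replicate block it gave 8 of the 26, against 9.98% of all kept probe sets.

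Among the 5 was Cldn9, a claudin gene next to Cldn6 on chromosome 17. It had 6.34 and 9.13 in foregut endoderm 1 and 2, against 3.79 and 5.06 in mesoderm and ectoderm 1 and 2. Every endoderm value was higher, by 2.55 and 4.08 in the experiments, and the high and low samples stood in the order seen for Cldn6 except that mesoderm and ectoderm 2 stayed below foregut endoderm 1. Its mean difference was 3.31 ± 1.17 (SE), and it was 1.92 without foregut endoderm 2. Patj and Crb3, proteins of the Crumbs complex that sets the apical side of epithelial cells, were next. Patj was at 7.57 and 8.38 in endoderm, against 5.40 and 4.67, with a mean difference of 2.94 ± 0.50 (SE). Crb3 was at 5.63 and 7.57 in endoderm, against 3.48 and 4.19, with a mean difference of 2.76 ± 0.82 (SE), 1.79 without foregut endoderm 2, and like Cldn4 it passed the filter through endoderm alone. No value of either gene overlapped between tissues, as in 18.2% of all kept genes with endoderm higher. For Crb3 this order was fixed by the filter.

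The junctional adhesion molecule F11r (JAM-A) had 7.07 and 9.39 in foregut endoderm 1 and 2, against 5.72 and 7.78 in mesoderm and ectoderm 1 and 2, so that the tissues overlapped across experiments but differed by 1.35 and 1.61 within them. Its mean difference of 1.48 was 0.32 without foregut endoderm 2 and 0.45 without mesoderm and ectoderm 1. Amot (angiomotin), which binds the Crumbs complex partners, was at 13.23 and 13.79 in endoderm, against 11.27 and 12.04, and differed by 1.96 and 1.75. The gene lower in both was Ildr2, an immunoglobulin-like gene of the angulin family of tricellular junctions, at 8.83 and 4.79 in endoderm, against 10.69 and 9.15. Its differences were -1.86 and -4.36, with a mean of -3.11 that was -1.09 without foregut endoderm 2.

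Cgnl1 (paracingulin, the relative of cingulin) and Marveld1 went opposite ways past 2-fold in the experiments, as 2.03% of all kept genes did. Cgnl1 was at 5.56 and 5.28 in foregut endoderm 1 and 2, against 2.88 and 7.15 in mesoderm and ectoderm 1 and 2, and its low and its high sample were thus both outside the endoderm. Marveld1 was at 8.5 and 5.51 in endoderm, against 7.30 and 8.38, with its lowest value in foregut endoderm 2. Heart, endothelial, mesenchyme and blood marker sums had the same order between tissues as Cgnl1 and Marveld1 in each experiment, and their part in it was not tested. Cingulin itself did not share this order.

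Of the 26 genes, 15 were under 2-fold in both experiments, as were 76.3% of all kept genes, and so was Tjp1 among the members, as were 73.7% of all kept probe sets. They included the polarity gene Pard6b (0.36 and 0.46), the scaffold Mpdz (0.10 and 0.53) and Cldn12, a claudin that lacks the usual PDZ-binding end (-0.27 and -0.06), which were chosen after their values were seen. Another 14 claudins on the array were below the filter, and 11 of them had their brightest probe set under 3 log2 units on all 4 arrays. The 2 that exceeded 4 on any array were Cldn11 and Cldn8. Cldn11 was at 3.31 and 6.37 in endoderm, against 2.28 (the floor) and 2.92. Cldn8 was at 3.46 and 5.30 in endoderm, against 2.69 and 2.69, where the low values were background-bound. Both genes were highest in foregut endoderm 2, as 3 of the 4 Cldn3 probe sets were. Marveld2 (tricellulin), which lies next to Ocln on chromosome 13, was at 4.97 and 6.94 in endoderm, against 4.01 and 4.02, where the low values were background-bound. These 3 genes were also chosen after their values were seen.

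The members differed among themselves when the experiments were compared within a tissue, second minus first. Cldn6 was higher in the second experiment by 3.38 in endoderm and 2.37 in mesoderm and ectoderm, and it was the only 1 of the 5 members past 2-fold in both tissues, against 11.4% of all kept probe sets. Cldn7 was higher by 1.90 in endoderm and 0.94 in mesoderm and ectoderm. Cldn4 differed by only 0.33 and 0.05, Cgn by 1.03 and -0.51, and Tjp1 by -0.66 and -0.98. The median over all kept probe sets was -0.04 in endoderm and 0.004 in mesoderm and ectoderm. Among the epithelial markers, 4 of 7 were past 2-fold in both tissues: Epcam by 2.48 and 2.65, and the keratin genes Krt8 by 2.27 and 2.35, Krt18 by 2.71 and 3.40 and Krt19 by 3.30 and 3.00. Cdh1 (1.45 and 0.15), Esrp1 (0.41 and -1.09) and Grhl2 (-0.01 and -1.08) were not. Cldn6 was thus past 2-fold in both tissues, as were Epcam and the keratins, F11r (2.32 and 2.06) and Cldn9 (2.79 and 1.26), while Cldn4 was past it in neither. These shifts are given as a description, with no test, and the part of the enzyme digestion in them cannot be told apart from that of the experiment.

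**Figure D3:**
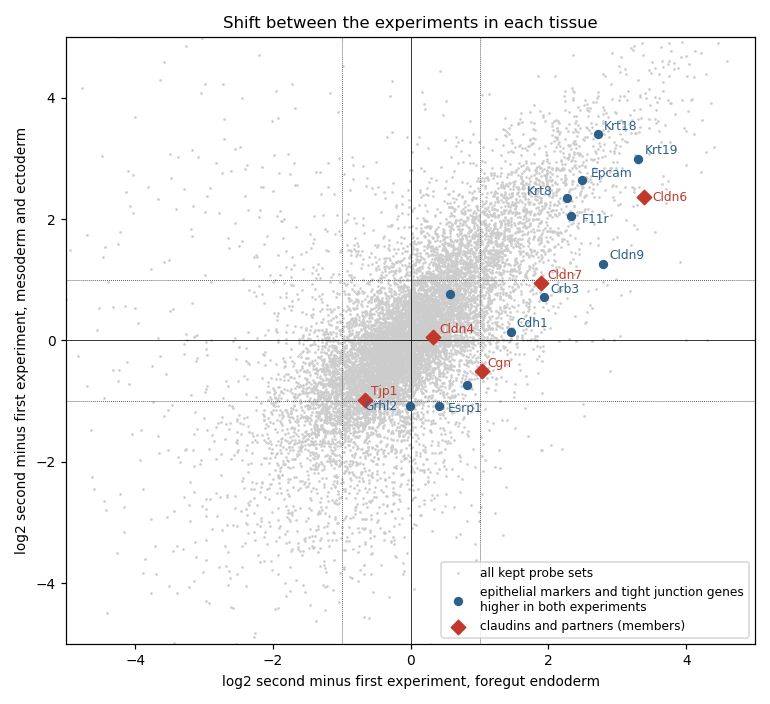
Log2 second minus first experiment in foregut endoderm (horizontal) and in mesoderm and ectoderm (vertical). Grey points are the 13288 kept probe sets, of which 85 lie outside the axes, red diamonds the 5 members and blue points the 7 epithelial markers and the 5 other tight junction genes higher in both experiments; dotted lines mark 2-fold. Cldn6 lies at 3.38 and 2.37 near Krt19, Epcam and F11r, Cldn4 near the origin and Tjp1 at -0.66 and -0.98.

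Profiles over the 4 arrays were compared by the Euclidean distance between log2 values, each gene centred on its own mean. To the median profile of the 5 members, Cldn7 was the nearest member at a distance of 0.69, followed by Cgn at 0.92, Cldn4 at 1.08, Cldn6 at 2.07 and Tjp1 at 2.69. In that order they ranked 36, 71, 127, 1928 and 5582 of the 7802 kept genes. The median profile thus stands poorly for Cldn6 and Tjp1. Among the members, the pair nearest each other was Cldn4 and Cgn at 1.27. Cldn9 lay 1.04 from Cldn6, the fifth nearest of 7801 other genes, and 1.03 from Cldn7, the 37th nearest. Tjp1 ranked 6423 of the 7801 by its distance from Cldn6, 4.59. The genes nearest to the median profile outside the members were Emb, an immunoglobulin-like surface protein gene, at 0.22, and Dsc2, a desmosomal cadherin gene, at 0.35. Then came Cthrc1, a secreted collagen repeat protein gene, at 0.36, Pura, a nucleic acid binding protein gene, at 0.38, Gfpt2, an enzyme of the hexosamine pathway, at 0.38, Eya4, a transcriptional coactivator, at 0.38, the small GTPase gene Rab15 at 0.41 and Ripply3, a transcriptional repressor of the pharyngeal region, at 0.43. Dsc2 was at 7.96 and 8.96 in foregut endoderm 1 and 2, against 6.33 and 6.65 in mesoderm and ectoderm 1 and 2. Ripply3 was at 6.89 and 8.29 in endoderm, against 5.40 and 5.52. As the profiles hold 4 values each, the distances describe these arrays only.

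**Figure D4:**
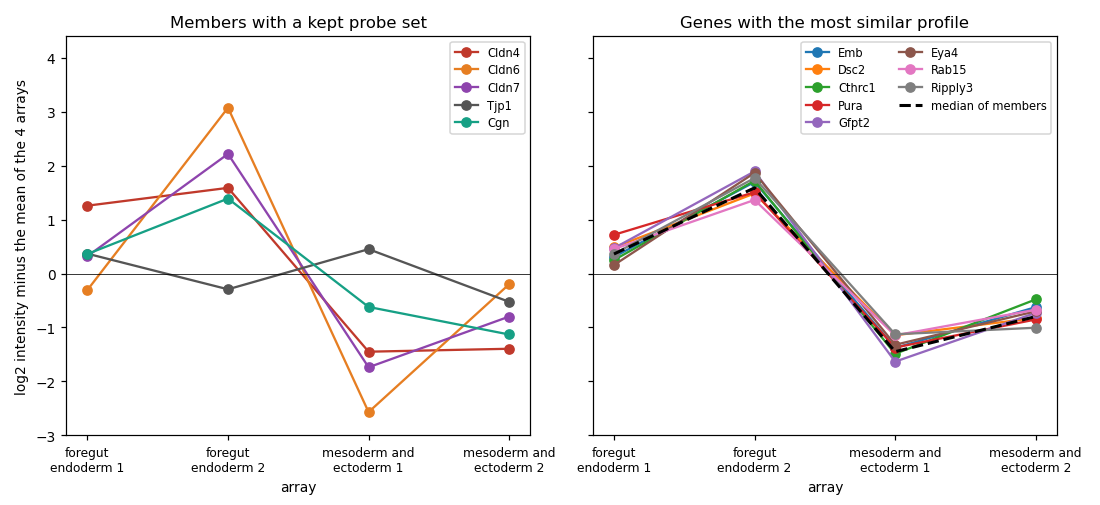
Log2 intensity minus the mean of the 4 arrays (vertical axis) on each array (horizontal axis), for the 5 members with a kept probe set (left) and the 8 other genes nearest to the members' median profile, drawn as a dashed line (right). Cldn4, Cldn6, Cldn7 and Cgn peak in foregut endoderm 2, Cldn6 has the widest range, and Tjp1 runs apart from the other members.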

How the data were processed

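Per the labels' protocols, RNA of 4 pooled tissue samples underwent linear amplification before hybridization to MOE430 arrays of Affymetrix. The authors deposited 1 intensity for each probe set and array. Per the series' design text it comes from GC-RMA, run in GenePattern, and per the submitters' processing notes from RMA. No source used here gives a version or a setting, and the linear scale was read from the values (4.75 to 75547). The 64 control probe sets were left out and log2 was taken. Names came from GEO's platform annotation, and sequences from RefSeq's promoter table.

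The tissue fit used limma 3.58.1 under R 4.3.3 (lmFit and eBayes, Benjamini-Hochberg adjustment, threshold 0.05) without a block. Its SE therefore holds any shift between experiments. The fit was tested on simulated data, where it missed the genes made to differ once the experiments were shifted against each other, and the fit with a block found them. There the shift was the same in both tissues, and no tissue difference changed between experiments as that of Cgnl1 did here. The simulation therefore does not show what either fit can find in these data. Same-numbered samples are pairs because the labels' protocols give them the same dissection; their deviations from the tissue means correlated at r = 0.56 across probe sets. Nothing says that pools came from separate litters, so p-values measure only the spread between these samples. Alternatives were the block, the scaling, the filter, an offset of 16 and leaving out each array. Genes outside the members were named by a 2-fold rule in both experiments and, for profiles, by the 8 smallest distances; those the text says were chosen after their values were seen fall outside this rule. The members and lists were chosen with earlier results of these data known. Of the listed genes, 7 were not matched to a probe set and are not analysed here.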

Additional observations from a re-analysis of the deposited data

Results flagged for a closer look

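Of the members and the genes named with them, 3 with a kept probe set had tissue differences of opposite sign in the experiments, which was not tested. Below the filter, the signs also differed for Tjp3 (-0.08 and 0.90), Cldn3 1451701_x_at and 1460569_x_at, and Ocln 1440220_at, mostly with values near the background. For Tjp1 the difference in the second experiment minus that in the first was 0.32, less than its SE of 0.53. It was -4.55 for Cgnl1 and -4.06 for Marveld1. Groups of 2 samples were too small to look for outlying samples.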

How the results depend on the processing

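Cldn4, Cldn6, Cldn7 and Cgn were higher in endoderm under every alternative run, and a replicate block left the count of limma's calls at 0. The median difference of the kept members, 2.54 as deposited beside 0.10 over all probe sets, was 2.36 beside -0.08 with median centring and 2.38 beside -0.02 with quantile normalization. It was 0.78 without a filter, where 16 probe sets entered, and, in fits lacking 1 array, between 1.24 (without foregut endoderm 2) and 3.01. Tjp1 turned to -0.10 with median centring and lay between -0.41 and 0.56 in the fits that each lacked 1 array. Cgnl1 turned to -0.046 on the log2(value + 16) scale and ran from -1.73 (without mesoderm and ectoderm 1) to 2.54, and Marveld1 ran from -2.33 to 0.65 (without foregut endoderm 2). Crb3 and Cgnl1 had no value with the filter at 6. With 1 array left out, the other array of its tissue was set against both arrays of the other tissue. Of the 2 differences, 1 thus crossed the experiments. Members at least 2-fold higher in both differences then numbered 2 to 4, against 4.64% to 8.26% of all kept probe sets. The other tight junction genes numbered 4 to 7 (higher), against 4.69% to 7.29% of all kept genes. Those lower numbered 0 (without foregut endoderm 2) to 2 (without foregut endoderm 1), against 1.64% to 4.13%. The cause was not tested. Most values of Cldn3, Ocln, Marveld3 and Tjp3 lay near the background, which limits what their differences show.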
